A study of Mus musculus with 52 samples.

Results

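The genes described here are 10 enzymes and chaperones that modify, fold, process and crosslink collagen, namely P4ha1, P4ha2, Plod1, Plod2, Plod3, Serpinh1, Crtap, Ppib, Pcolce and Lox. They were picked by symbol, and all 10 were found among the 22417 genes of each deposited table. Ribosome footprints and mRNA had been sequenced from an endoplasmic reticulum (ER) fraction and a cytosol fraction of mouse embryonic fibroblasts. All groups carry the genotype given as CReP+/-; GADD34+/+ (WT). CReP and GADD34 are regulatory subunits that bring a phosphatase to the initiation factor eIF2 alpha, so every group, the untreated cells included, lacks 1 copy of CReP. Cells were untreated, treated with thapsigargin (Tg, which blocks the pump that fills the ER with calcium) for 0.5, 1, 2 or 4 h, or treated for 30 min with dithiothreitol (DTT, which reduces disulfide bonds) and harvested after 0, 10 or 20 min of recovery. Each of the 26 groups had 2 replicates. The deposited tables hold 1 pooled value per gene and group, which leaves no replicate error to set a difference against and no test to run. The labels of the 12 DTT samples name no assay, and the assay of those columns is taken from the table headers.

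Collagen chains are made on ribosomes bound to the ER and enter its lumen as they grow. Prolyl hydroxylases make the hydroxyproline that keeps the triple helix stable at body temperature, and lysyl hydroxylases make the hydroxylysine that later carries sugars and crosslinks. A complex of Crtap, the cyclophilin Ppib and a prolyl 3-hydroxylase modifies the chains and helps the helix to fold, while Serpinh1 (HSP47) binds the folded helix and leaves it in the early Golgi. Outside the cell, Pcolce speeds the removal of the C-propeptide and Lox oxidises lysines so that fibres crosslink. All 10 proteins have signal sequences, and their mRNAs are translated at the ER.

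The values below are footprint and mRNA scores on the authors' scale, which the headers do not define. The scale is not stated to be per transcript length, so scores are compared between conditions and between fractions for the same gene and not between genes. A difference is a log2 difference of score + 1, and a gene is called when it passes 2-fold, that is, a log2 difference above 1 or below -1. Each count of members called is set beside the share of all measured genes called in the same direction. A deposited column without a heading marks 8434 genes TRUE, and all 10 members are among these. Scores of fibroblast markers were present for 10 of 10 genes, with a summed footprint score of 13400 in untreated cells and 4428 to 16960 over the conditions. Epithelial markers had values for 3 of 5 genes (summed score 0.646), endothelial markers for 3 of 4 (0.623) and leukocyte markers for 1 of 5 (1.16), and of 4 muscle markers Actc1 alone had a value (7.29), with Myod1, Myog and Des blank. The scale of a score is not defined and gives no value per cell, so fewer cells that translate a gene and less translation per cell cannot be told apart.

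The promoters of 8 of the 10 genes were found in a RefSeq table of build GRCm38.p6, from 250 bases before to 50 bases after the start of each gene. Those of P4ha2, Serpinh1 and Ppib are shown because the summed footprints of Serpinh1 and Ppib and the ER density of P4ha2 are singled out below. Sequences run 5′ to 3′ on the strand of the gene, at chr11:54100674-54100973 on the plus strand, chr7:99353190-99353489 on the minus strand and chr9:66059919-66060218 on the plus strand. Capitals mark the motifs CCAAT, then CCACG, and also ACGTG, on either strand, where ACGTGG is an ACGTG overlapping a reversed CCACG.
P4ha2: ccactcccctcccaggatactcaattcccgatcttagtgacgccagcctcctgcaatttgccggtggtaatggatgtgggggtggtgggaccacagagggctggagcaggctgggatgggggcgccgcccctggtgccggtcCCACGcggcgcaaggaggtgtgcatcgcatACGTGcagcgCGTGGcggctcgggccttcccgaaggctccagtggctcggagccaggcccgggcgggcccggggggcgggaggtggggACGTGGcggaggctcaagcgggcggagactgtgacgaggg
Serpinh1: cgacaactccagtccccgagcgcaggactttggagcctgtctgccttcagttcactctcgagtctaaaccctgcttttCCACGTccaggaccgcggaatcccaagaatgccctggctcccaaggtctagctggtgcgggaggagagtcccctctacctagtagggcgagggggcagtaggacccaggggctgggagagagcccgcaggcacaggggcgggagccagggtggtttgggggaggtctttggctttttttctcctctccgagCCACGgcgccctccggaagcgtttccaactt
Ppib: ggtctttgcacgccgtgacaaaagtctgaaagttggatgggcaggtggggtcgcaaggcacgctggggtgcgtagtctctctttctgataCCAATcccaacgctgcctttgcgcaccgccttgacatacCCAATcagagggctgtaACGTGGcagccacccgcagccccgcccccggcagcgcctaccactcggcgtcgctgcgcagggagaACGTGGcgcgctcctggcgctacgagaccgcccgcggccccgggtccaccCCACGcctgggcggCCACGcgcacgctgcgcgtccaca
CCAAT and CCACG together make up the ER stress response element (ERSE), and ACGTG lies in the core of the unfolded protein response element searched below and in the hypoxia element. ACGTG was found in 5 of the 8 promoters (P4ha1, P4ha2, Plod3, Serpinh1 and Ppib) and in 19.6% of all 32851 promoters. CCACG was found in 7 (all but Plod3) and in 32.8% of all promoters, and CCAAT in Plod3 and Ppib and in 37.4% of all. The whole ERSE, with 9 bases from the end of CCAAT to the start of CCACG, present in 0.119% of promoters, the ERSE-II, with 1 base from ATTGG to the start of CCACG, present in 0.0365%, and the core TGACGTGG, present in 0.676%, were searched on both strands and had no match in these 8 windows.

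In untreated cells the footprints of all 10 genes lay almost wholly in the ER fraction. Their ER share, the ER score divided by the sum of both fractions, ran from 93.4% for Pcolce to 99.3% for P4ha1, with a median of 98.4%, against a median of 90.7% for marked and 38.9% for unmarked genes. All 10 were over 2-fold higher in the ER than in the cytosol, as were 11.8% of all genes and 67.6% of marked genes. The median difference of the members was 5.05 on the log2 scale, against 2.50 for marked genes. The secreted proteins Pcolce (log2 difference 3.78) and Lox (4.27) had the smallest differences, and P4ha1 (6.55) and Serpinh1 (6.002) the largest. The place of Serpinh1 depends on the added 1, which weighs on low cytosol scores. By ER share, Plod3 (99.1%) and Plod1 (98.8%) were above Serpinh1 (98.7%).

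After 0.5 h of Tg this distribution broke up in the same way for all 10 genes. Footprints were over 2-fold lower in the ER for 10 of 10 members, as for 14.2% of all genes and 30.1% of marked genes, and over 2-fold higher in the cytosol for 10 of 10, as for 17.6% of all and 68% of marked genes. The ER shift (the difference in the ER less that in the cytosol) was over 2-fold lower for 10 of 10 (20.9% of all genes, 76.2% of marked genes). Its median was -5.12 for the members and -2.66 for marked genes. The ER share of the members came to 42.0% to 57.0%. Its median was 47.3%, beside 47.5% for marked genes with values at this time. The members had started from the higher median share (98.4% against 90.7%) and came to nearly the same one. Over the whole footprint library the ER columns held 31.7% of the summed score at this time and 41.6% in untreated cells. Centred on the median of all genes, the shift was still over 2-fold lower for 10 of 10.

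**Figure D1:**
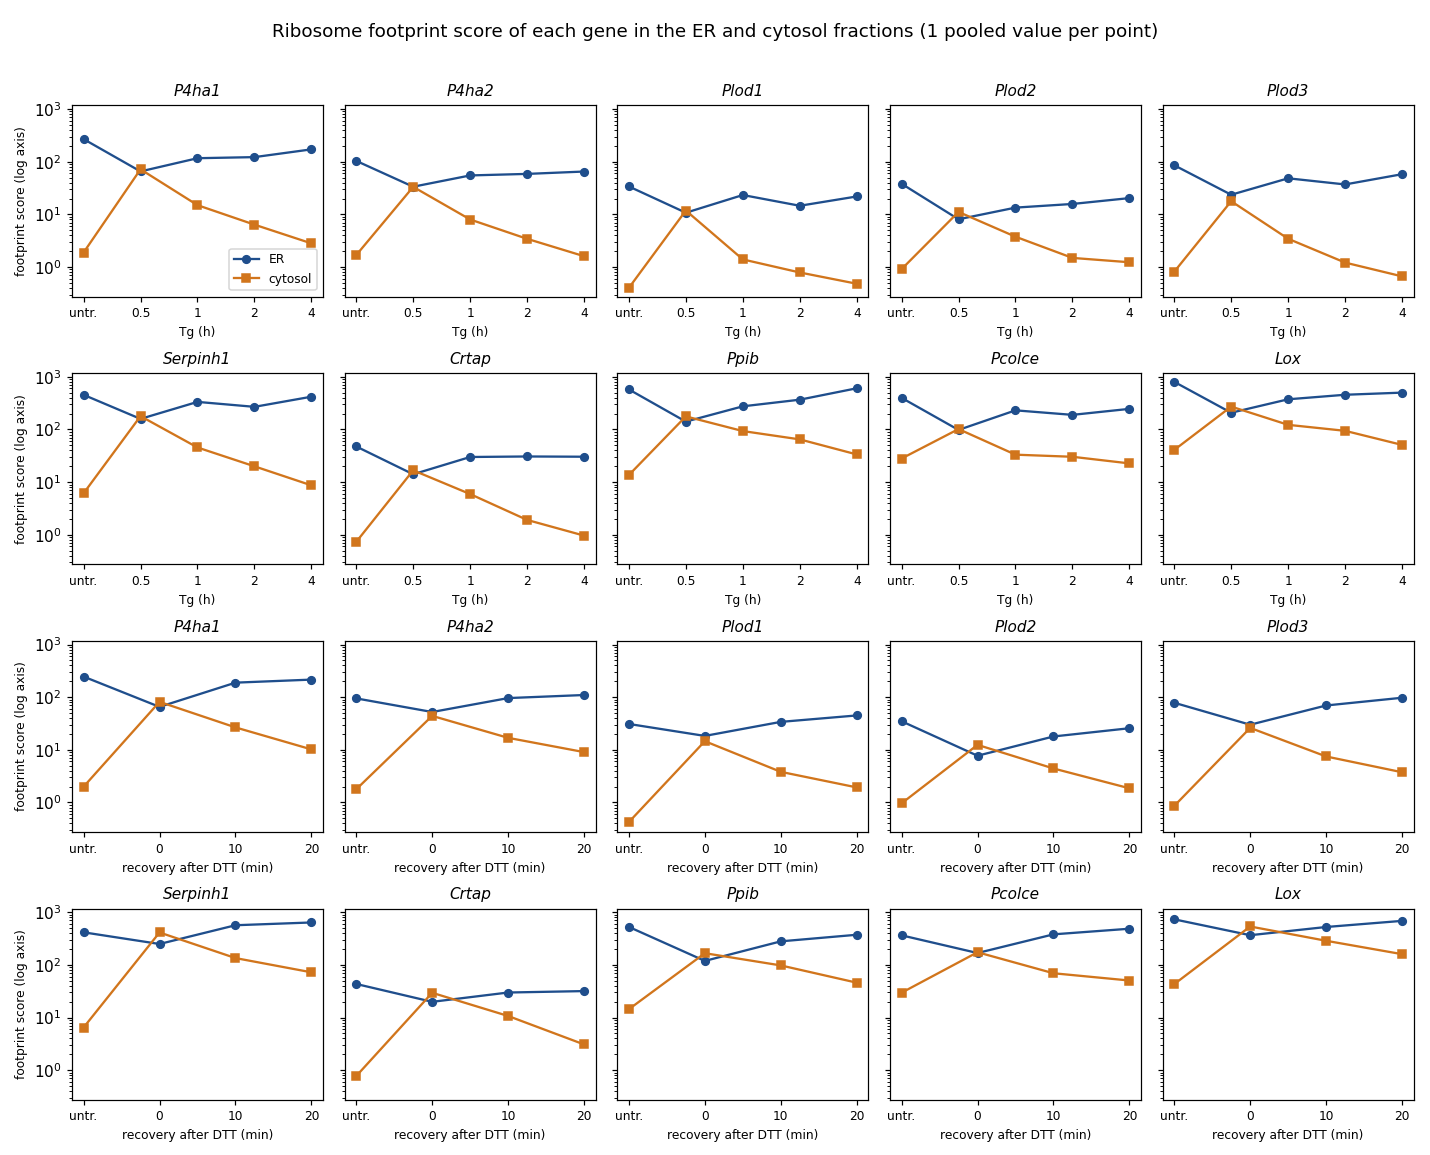
Footprint score (log axis) of each gene in the ER fraction (blue circles) and the cytosol fraction (orange squares). The upper 10 panels show untreated cells and 4 Tg times, the lower 10 untreated cells and 0, 10 and 20 min of recovery after 30 min of DTT, with 1 pooled value per point and no error bars. Both lines meet after 0.5 h of Tg and directly after DTT, and part again later.

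Among the prolyl 4-hydroxylases, whose catalytic alpha subunits are P4ha1 and P4ha2, the ER footprint score of P4ha1 was 269 in untreated cells and 65.5, 117, 122 and 172 after 0.5, 1, 2 and 4 h of Tg. Its cytosol score was 1.88 in untreated cells and 71.9, 14.97, 6.38 and 2.81 at these times. The cytosol score thus passed the ER score at 0.5 h and then came back towards the untreated value, while the ER score at 4 h was still below it. P4ha1 had the largest ER shift of the 10 genes at 0.5 h (log2 -6.68, from an ER difference of -2.02 and a cytosol difference of 4.66). For P4ha2 the ER score was 104 in untreated cells and 33.5, 54.9, 58.7 and 65.1 under Tg, and the cytosol score 1.68 and then 33.4, 7.997, 3.43 and 1.61. By 4 h its cytosol score was no higher than in untreated cells.

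After DTT both genes moved alike in the cytosol and unlike in the ER. On the scale of the DTT table, P4ha1 scored 246 in the ER of untreated cells, 65.4 directly after DTT, and 189 and 215 after 10 and 20 min of recovery. In the cytosol it scored 1.99, 81.4, 26.6 and 10.2. P4ha2 scored 94.8, 52.2, 96.0 and 110 in the ER, so its lowest value was a log2 difference of -0.85, short of 2-fold, and the values after recovery were above the untreated value. Its cytosol scores were 1.78, 44.1, 16.9 and 9.04.

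For the lysyl hydroxylases Plod1, Plod2 and Plod3 the ER score was also lowest, and the cytosol score highest, at 0.5 h of Tg. From 1 to 2 h the ER scores of Plod1 and Plod3 went down again, while that of Plod2 went up. Plod1, which hydroxylates lysines of the helix, scored 33.9 in the ER of untreated cells and 10.8, 23.3, 14.6 and 21.9 under Tg, and 0.402 and then 11.8, 1.40, 0.788 and 0.482 in the cytosol. Plod2, the enzyme of telopeptide lysines, scored 38.2 and then 8.07, 13.5, 15.8 and 20.4 in the ER, and 0.911 and then 11.1, 3.77, 1.49 and 1.23 in the cytosol. Plod2 had the lowest ER share of the 10 genes at 0.5 h (42.0%) and the largest loss of ER footprints (log2 -2.11). Plod3, which also adds sugars to hydroxylysine, scored 85.8 and then 23.6, 48.4, 37.0 and 58.0 in the ER and 0.814 and then 17.8, 3.44, 1.21 and 0.665 in the cytosol. Its share at 0.5 h was the highest of the 10 (57.0%).

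Directly after DTT the 3 enzymes differed in the ER. Plod1 scored 30.965 in untreated cells, 18.4 after DTT, and 33.9 and 45.0 after 10 and 20 min, while Plod3 scored 78.3, 30.0, 69.5 and 97.4. Both were above the untreated score at 20 min, by log2 differences of 0.52 and 0.31, which did not pass 2-fold. Plod2 scored 34.9, 7.72, 17.9 and 25.7 and stayed below its untreated score throughout. In the cytosol, scores went from 0.425 to 14.6, 3.81 and 1.93 for Plod1, from 0.961 to 12.4, 4.42 and 1.86 for Plod2, and from 0.859 to 26.1, 7.48 and 3.75 for Plod3.

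Of the chaperones, Serpinh1 scored 455 in the ER of untreated cells and 159, 334, 269 and 419 under Tg, and 6.11 and then 179, 45.4, 19.9 and 8.67 in the cytosol. At 4 h its ER score was within a log2 difference of -0.12 of the untreated value. Ppib, the cyclophilin that isomerises prolines in the ER, scored 576 and then 141, 275, 367 and 605 in the ER, and 13.6 and then 177, 93.1, 64.7 and 33.5 in the cytosol. Ppib was the only member whose ER score at 4 h was above the untreated one (log2 0.07), and the only one over 2-fold higher in the cytosol then (log2 1.24). Relative to the median of all genes, its ER difference was -0.06. Crtap, the partner of Ppib in the 3-hydroxylase complex, scored 47.5 and then 14.1, 30.0, 30.7 and 30.3 in the ER, and 0.732 and then 16.7, 5.93, 1.91 and 0.962 in the cytosol. The ER score of Crtap stayed level from 1 h on, while that of Ppib went on to higher values at each time.

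DTT gave the chaperones another order. Serpinh1 scored 415 in the ER of untreated cells, 249.2 after DTT, and 566 and 639 after 10 and 20 min of recovery. Its cytosol scores were 6.45, 413, 135 and 72.2, and the difference at 0 min of recovery (log2 5.80) was the largest of the 10 genes. Ppib scored 526, 119, 280 and 373 in the ER and 14.4, 167, 97.6 and 45.9 in the cytosol. On score + 1 it had the largest loss of ER footprints directly after DTT (log2 -2.14). This place depends on the added 1, since Plod2 (34.9 to 7.72) lost a slightly larger part of its score. Crtap scored 43.4, 19.9, 29.9 and 31.8 in the ER and 0.772, 29.5, 10.7 and 3.08 in the cytosol. Serpinh1 therefore ended the recovery above its untreated ER score, and Ppib and Crtap below theirs.

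The secreted proteins Pcolce and Lox had lower ER shares in untreated cells (93.4% and 95.2%) than the 8 ER residents (97.7% or more). Pcolce scored 399 in the ER and 97.9, 231, 189 and 246 under Tg, with 28.01 and then 101.7, 33.2, 30.3 and 22.6 in the cytosol. Lox scored 803 and then 208, 374, 456 and 500 in the ER, and 40.8 and then 272, 122, 94.1 and 50.8 in the cytosol. From higher starting shares in the cytosol, Pcolce had the smallest cytosol difference at 0.5 h (log2 1.82), and Lox the lowest ER share at 2 and 4 h (82.9% and 90.8%). After DTT, Pcolce scored 364, 168, 380 and 486 in the ER and 29.6, 174, 69.3 and 50.4 in the cytosol. Lox scored 733, 366, 524 and 685 in the ER and 43.0, 536, 287 and 160 in the cytosol. Its ER difference directly after DTT lay at the 2-fold threshold, and its ER share at 20 min of recovery (81.1%) was the lowest of the 10.

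The redistribution was graded in time. Over 2-fold lower ER footprints were found in 4 of 10 members at 1 h of Tg (6.32% of all genes), in 5 at 2 h (4.63%) and in 0 at 4 h (2.37%). Of marked genes, 12.4%, 14.3% and 5.81% were lower at these times. The cytosol was over 2-fold higher in 8 members at 1 h (14% of all genes), in 4 at 2 h (11.2%) and in 1 at 4 h (4.92%). Of marked genes, 51.3%, 35.8% and 14.9% were higher, so the counts at 2 and 4 h are near the share of marked genes. The shift stayed over 2-fold lower in 10 at 1 h (13.9% of all genes, 61.8% of marked genes) and in 10 at 2 h (10.2% and 57.5%). At 4 h it did so in 3, namely P4ha1, Plod2 and Ppib, as in 3.71% of all genes and 21.4% of marked genes. The median ER share of the members was 47.3%, 87.4%, 93.6% and 97.3% at 0.5, 1, 2 and 4 h.

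Directly after DTT the ER was over 2-fold lower in 7 members (18.5% of all genes, 30.2% of marked genes). The cytosol was higher in 10 (30.3% of all genes, 78.5% of marked genes). The shift was lower in 10, with a median of -5.03 (32% of all genes, 81.8% of marked genes). Median ER shares were then 43.1% for the members and 38.9% for marked genes, against 98.2% and 89.4% in untreated cells. The 3 members short of 2-fold in the ER, with Lox counted just past it, were P4ha2, Plod1 and Serpinh1. Over the whole library the ER columns then held 26.4% of the footprint score, against 38.1% in untreated cells, and centred on the median of all genes the ER count was 4 in place of 7. The part of this library-wide change in the members' values was not tested. After 10 min of recovery the ER was lower in 0 members (3.73% of all genes), the cytosol still higher in 10 (20.8%) and the shift lower in 10 (20.2%). Of marked genes, 65.7% passed in the cytosol and 66.8% in the shift. At 20 min the ER was lower in 0 (1.15%), the cytosol higher in 8 (12.9%) and the shift lower in 7 (10.7%). The shares of marked genes were then 42.6% in the cytosol and 45.4% in the shift. Between 0 and 20 min of recovery the shift was over 2-fold higher for 10 of 10, with a median of 3.61, as for 29.5% of all genes and 79.8% of marked genes. P4ha1 moved back furthest (log2 4.59) and Lox least (2.64).

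**Figure D2:**
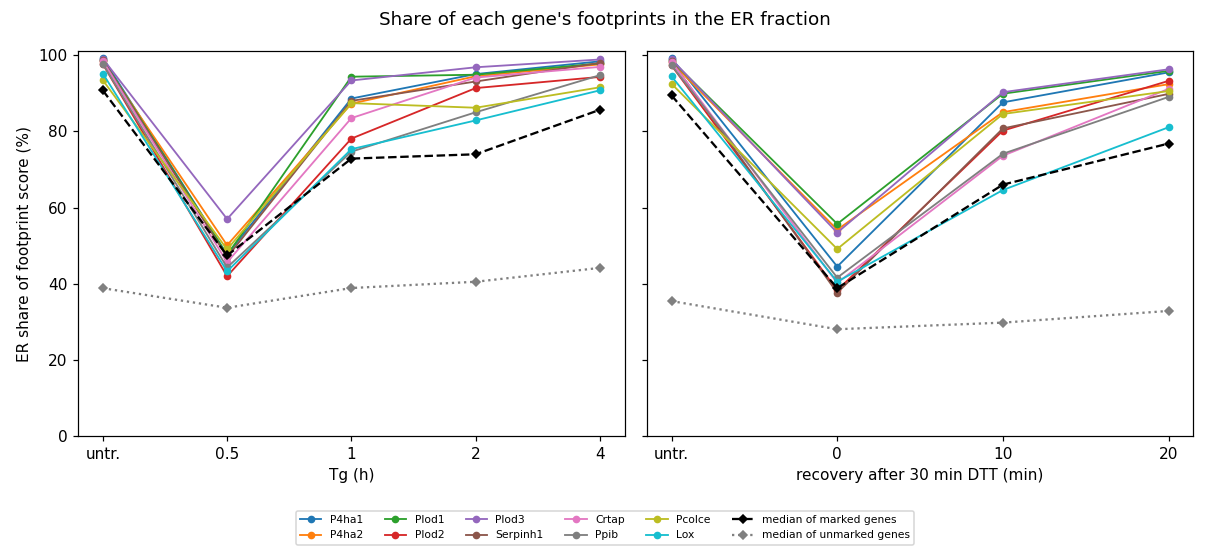
ER share of the footprint score in percent for each gene (solid lines, 1 pooled value per point), with the median of marked genes (black dashes) and of unmarked genes (grey dots), by Tg time on the left and recovery after DTT on the right. The members' median goes from 98.4% to 47.3% at 0.5 h and back to 97.3% at 4 h of Tg, and reaches 91.8% after 20 min of recovery from DTT.

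The score summed over both fractions separated the agents and the members. This sum takes the authors' scale of each fraction as it stands. Under Tg it was below untreated cells for all 10 genes at 0.5 h, between 46.8% of untreated for Pcolce and 73.2% for Serpinh1. On score + 1, Plod3 and Pcolce passed 2-fold, as did 1.87% of all genes and 6.41% of marked genes. The percentages are without the added 1, and Plod2, at 49.1%, passed 2-fold on them but not on score + 1. The members' median log2 difference was -0.85 at 0.5 h and -0.61 at 4 h, against 0.03 and 0.06 for all genes and -0.10 and -0.07 for marked genes. Over 2-fold lower sums were found in 2 members at 1 h (3.31% of all genes), 4 at 2 h (2.82%) and 0 at 4 h (2.29%). At 4 h, 8 of the 10 genes lay between 55.2% (Plod2) and 67.7% (Plod3) of untreated. Serpinh1 at 92.7% and Ppib at 108% stood above them.

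After DTT the sums lay on both sides of the untreated value. Directly after DTT they ran from 52.9% of untreated for Ppib to 157% for Serpinh1, with 4 genes above 100% and 6 below. The median log2 difference of all genes was 0.20 here and 0.32 for marked genes, and relative to all genes 2 members (Serpinh1 and Lox) were above and 8 below. After 20 min of recovery, 6 genes were above 100%: Serpinh1 at 169%, Plod1 at 149%, Pcolce at 136%, Plod3 at 128%, P4ha2 at 123% and Lox at 109%. P4ha1 at 91.0%, Crtap at 78.9%, Ppib at 77.6% and Plod2 at 76.8% were below. Relative to the median of all genes (0.17, and 0.13 for marked genes) 5 were above and 5 below, with Lox among the lower ones. None of these passed 2-fold, while 6.19% of all genes did so upwards and 0.418% downwards. Serpinh1 was above Ppib at 0.5 h (73.2% and 53.9%) and 1 h (82.3% and 62.5%) of Tg and after DTT, while Ppib was above Serpinh1 at 2 h (73.3% and 62.6%) and 4 h of Tg. The 2 series share their untreated cells and differ in duration, so these values stand side by side without a test.

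**Figure D3:**
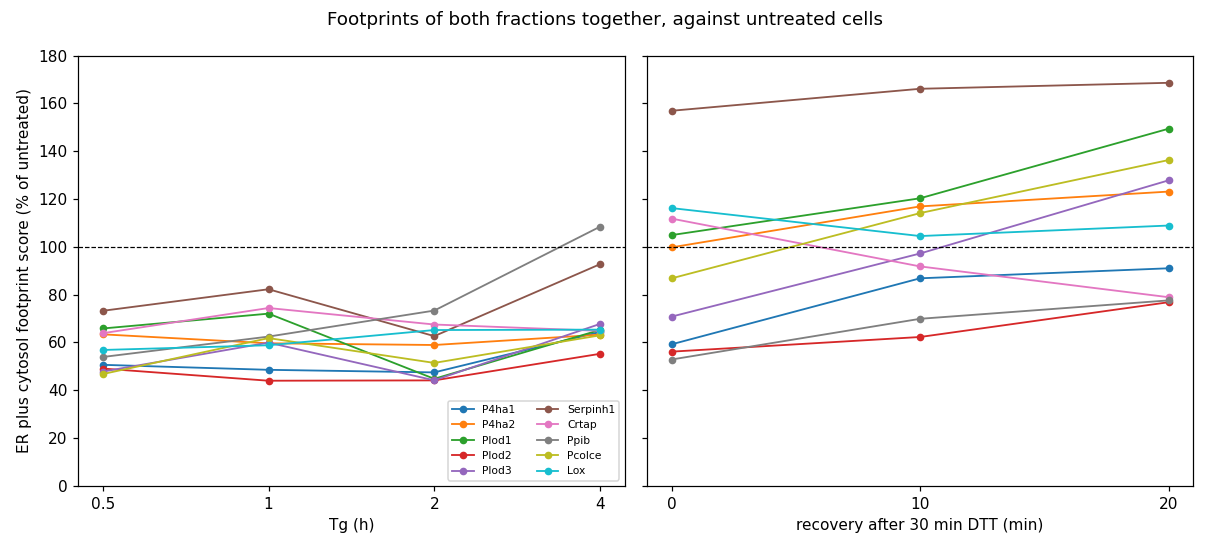
Footprint score of ER plus cytosol as percent of untreated cells for each gene, by Tg time on the left and recovery after DTT on the right, 1 pooled value per point, with the dashed line at 100%. At 4 h of Tg, Ppib at 108% is the only gene above the line, and at 20 min of DTT recovery 6 genes are above it, led by Serpinh1 at 169%.

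The mRNA of the 4 genes that could be compared also became more evenly divided between the fractions under both agents. In untreated cells 4 of the 10 genes had an mRNA value in both fractions, and ER shares were 91.9% for P4ha1, 90.3% for Ppib, 92.7% for Pcolce and 81.1% for Lox. All 4 were over 2-fold higher in the ER, as were 12.7% of all genes. The cytosol mRNA of the other 6 was blank in untreated cells and had a value at 0.5 h of Tg in all 6, from 12.7 for Plod1 to 53.5 for Serpinh1. The files do not say what a blank means, so no difference is given for them.

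After 0.5 h of Tg, P4ha1 mRNA went from 93.6 to 55.1 in the ER and from 8.20 to 60.6 in the cytosol. Ppib mRNA went from 180 to 71.1 in the ER and from 19.3 to 70.7 in the cytosol. Pcolce went from 94.7 to 31.1 and from 7.48 to 58.0, and Lox from 69.8 to 36.1 and from 16.3 to 45.4. The mRNA shift was over 2-fold lower for 4 of 4 (31.9% of all genes, 63.2% of marked genes), and its median over all genes was -0.69. Over the whole mRNA library the ER columns held 29.3% of the summed score at this time and 41.55% in untreated cells. ER mRNA was over 2-fold lower for 5 of 10 members (12.4% of all genes), namely Plod3, Serpinh1, Crtap, Ppib and Pcolce, and cytosol mRNA higher for 4 of 4 (11%). The sum of both fractions was 71.1% of untreated for Ppib, 87.2% for Pcolce, 94.6% for Lox and 114% for P4ha1. Beside these, the footprint sums of the 4 genes were 53.9%, 46.8%, 56.9% and 50.6%.

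Directly after DTT, ER mRNA was over 2-fold lower for Plod2 and Ppib (2 of 10 members, 12.3% of all genes) and cytosol mRNA higher for 4 of 4 (14.9%). The median mRNA shift of all genes was -0.76. Over the whole mRNA library the ER columns then held 23.8% of the summed score, against 38.1% in untreated cells. Ppib mRNA went from 165 to 52.7 in the ER and from 20.3 to 166 in the cytosol, which left 24.1% of it in the ER. Its ER share was 73.4% after 20 min of recovery, when that of its footprints was 89.0%. The summed mRNA of P4ha1, Ppib, Pcolce and Lox was between 100.4% and 168% of untreated directly after DTT, between 145% and 220% after 10 min and between 146% and 170% after 20 min. P4ha1 at 10 min (log2 1.13) was the only one to pass 2-fold, as did 4.81% of all genes. Median log2 differences of summed mRNA at 0, 10 and 20 min were 0.41, 0.85 and 0.65 for these 4 genes. For all genes they were 0.03, 0.26 and 0.22.

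The ER mRNA score of P4ha2 was 12.3 in untreated cells and 11.04, 15.8, 17.1 and 28.8 under Tg, and at 4 h it was the only member over 2-fold higher (log2 1.17), which as 1 of 10 is near the 7.67% of all genes. In the DTT table it scored 11.2 in untreated cells, 17.5 directly after DTT, and 27.3 and 25.9 after 10 and 20 min of recovery. These last values were also over 2-fold higher (log2 1.22 and 1.14, against 5.57% and 4.79% of all genes), and Plod3 passed 2-fold beside it at 10 min (log2 1.10). The untreated score of P4ha2 lay below the 19.9 of the median gene of that column, and the depth behind it is unknown.

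Ribosome density, the deposited ratio of footprints to mRNA, was lower in the ER for most members under both agents. The density of P4ha2 in the ER was 8.94 in untreated cells and 3.24, 4.35, 3.88 and 2.66 under Tg. After DTT it was 3.03, 3.52 and 4.23. All 7 treated values were below the untreated one, and 5 of them passed 2-fold on log2(density + 1), at 0.5, 2 and 4 h of Tg and at 0 and 10 min of recovery. On that scale 2.13%, 2.2% and 1.72% of all genes passed at these Tg times, and 5.52% and 3.62% at these times of recovery, with Plod3 (3.47 to 1.06) beside P4ha2 directly after DTT. The added 1 compresses densities of this size, and on log2(density) more members passed. At 0.5 h of Tg these were P4ha1, P4ha2 and Plod2 (11.2% of all genes), at 1 h P4ha2 and Plod2 (13.8%), at 2 h P4ha2, Plod2, Plod3 and Serpinh1 (10.4%) and at 4 h P4ha2 and Plod3 (11.3%). Directly after DTT they were P4ha1, P4ha2 and Plod3 (20.9% of all genes), at 10 min of recovery P4ha2, Plod3 and Crtap (21.8%) and at 20 min P4ha2 (9.63%). Some of these counts, such as 1 of 10 members at 20 min of recovery (9.63%) and 3 of 10 at 10 min (21.8%), are near the share of all genes. P4ha2 was the only member past 2-fold at all 7 treatments on this scale. The share of all genes past 2-fold at all 7 was not counted. These 7 comparisons share 1 untreated density and are not independent. The untreated ER mRNA score behind that density was 12.3, below the 19.9 of the median gene, at unknown depth.

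Serpinh1 had a deposited ER density of 5.14 in untreated cells and 5.19, 5.54, 2.53 and 3.01 at the 4 Tg times. Its density was held at 0.5 h and was lower at 2 and 4 h. At 1 h the quotient of its footprint and mRNA scores was 3.97, against 5.12 in untreated cells. Whether its density was held at 1 h is thus uncertain. Under DTT the deposited density of Serpinh1 was 4.63, 4.24 and 5.71. P4ha1 went from 2.97 to 1.30, 1.51, 1.59 and 2.13 under Tg and to 1.23, 1.69 and 1.84 after DTT. Lox had the highest density of the 10 in the untreated ER (10.9) and lay between 5.73 and 10.1 under Tg and between 6.20 and 13.4 after DTT, so that it was below the untreated value at every Tg time and on both sides of it after DTT. Without a pseudocount, the members' median log2 density change in the ER was -0.72, -0.50, -0.96 and -0.48 at the Tg times and -0.91, -0.81 and -0.61 after DTT. The same medians of all genes were 0.03, -0.09, 0.00, -0.11, -0.28, -0.40 and -0.10.

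In the cytosol 4 members had a density in untreated cells. For P4ha1 it was 0.318 in untreated cells and 1.03 at 0.5 h of Tg, for Ppib 0.695 and 2.05, for Lox 2.99 and 5.58, and for Pcolce 3.93 and 1.64. Pcolce was thus lower and the other 3 higher. At 4 h of Tg the densities were 0.199 for P4ha1, 1.05 for Ppib, 1.97 for Lox and 1.78 for Pcolce, so that Ppib alone was above its untreated value. Directly after DTT they were 0.931, 1.05, 10.8 and 2.02, and after 20 min of recovery 0.417, 0.621, 3.46 and 1.25, with Pcolce below its untreated value in every treated column. Cytosol densities are less certain, since in 7 of 60 cases the density and the quotient of both scores differed by over 1.5 times, compared with 0 of 79 in the ER.

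**Figure D4:**
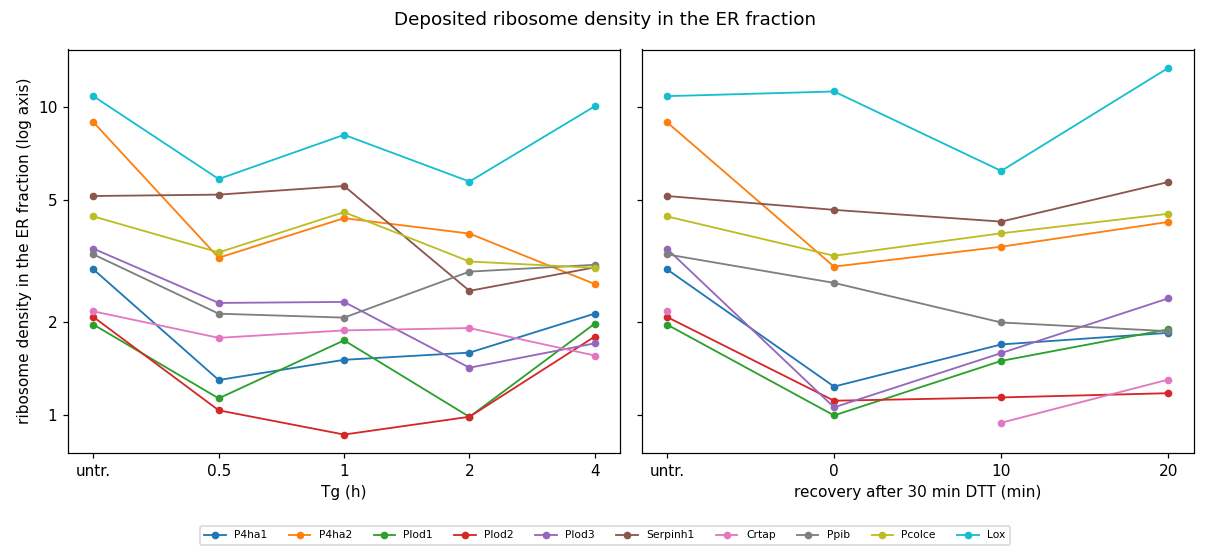
Deposited ribosome density in the ER fraction (log axis) for each gene by Tg time on the left and recovery after DTT on the right, 1 pooled value per point, with a gap where Crtap is blank directly after DTT. P4ha2 starts at 8.94 and stays between 2.66 and 4.35 under all 7 treatments, which share that 1 untreated value.

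Other genes of collagen biosynthesis were followed in 3 lists. Of 18 collagen chains, the substrates of these enzymes, 14 had values for the ER shift at 0.5 h of Tg and all 14 were over 2-fold lower (median -3.88), led by Col1a1 (log2 -6.14), Col5a2 (-5.72) and Col1a2 (-5.36). Of 14 other folding and modifying proteins, 9 had values and 7 were lower (median -4.08), led by P4hb, the disulfide isomerase that is the beta subunit of prolyl 4-hydroxylase (-6.51), the collagen-binding protein Sparc (-5.76) and the ER prolyl isomerase Fkbp10 (-5.09). Of 21 export, processing and crosslinking proteins, 15 had values and 11 were lower (median -2.61), led by Fn1 (-5.32), the membrane metalloprotease Mmp14 (-5.19) and the lysyl oxidase relative Loxl2 (-4.66). The 4 others in that list, at -0.96 to -0.25, were Tfg, Klhl12, Sec23a and Sec24d, which work on the cytosolic face of ER exit sites. In the same comparison 20.9% of all genes and 76.2% of marked genes were over 2-fold lower, and the shares of both last lists are close to that of marked genes.

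At 4 h of Tg the summed footprints of many chains were lower than in untreated cells. Of 14 chains with values, 7 were over 2-fold lower and 0 higher (median -1.004), led by Col5a1 (log2 -1.64), Col3a1 (-1.49) and Col6a3 (-1.44). Against 2.29% of all genes lower, this compares with 0 of 10 members (median -0.61). Of the 9 other folding proteins, 2 were lower, namely Leprel4 (-1.40) and Sparc (-1.23), around a median of -0.44. Of the 13 export and processing genes, Fn1 (-1.01) was lower and Tfg (1.02) higher, as were 4.01% of all genes, around a median of -0.46. After 20 min of DTT recovery, 1 of 12 chains was over 2-fold higher (Col6a2, log2 1.04), which is near the 6.19% of all genes. Of these chains 0 were lower (0.418% of all genes), and the other lists had 0 in either direction.

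The footprint pattern of the members was close to that of many other secretory genes. Over 14 log2 changes against untreated cells (7 conditions in 2 fractions), genes whose profile was among the 5 most like the members' median were Grn, the progranulin precursor (Pearson r = 0.9946), Fkbp10 (0.9944), the lysosomal protease Ctsb (0.9931) and the Golgi enzyme B4galt1 (0.9925). The set searched was the 4071 genes with complete values and a mean footprint level above the median of such genes. The members themselves ran from 0.937 (Ppib) to 0.995 (P4ha2). In the set searched, 608 marked genes outside the members had a median of 0.917, and all genes outside the members a median of 0.343. The median profile is made from the members, which raises their own r, so it cannot be set against that of outside genes. The 14 changes share their untreated columns and the contrast between fractions, so all these values are a description.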

How the data were processed

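The 2 deposited tables, covering Tg and DTT treatment, each open with 3 header lines. The deposited footprint and mRNA values are a score whose scaling the headers leave undefined. Ribosome density columns hold the authors' ratio of footprints to mRNA. A deposited column of TRUE or FALSE has no heading (unit other). Each value pools 2 replicates, so depth and counting precision are unknown. Reads were aligned with Bowtie, per the submitters' processing notes, and the version and genome build are not given in the sources used here. Footprint libraries were made by nuclease digestion, pelleting and gel purification, and mRNA libraries after depletion of ribosomal RNA, per the labels' protocols.

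Log2 differences used a pseudocount of 1 and genes with a value in the columns compared (9205 to 12676 genes per footprint column, 3596 to 5357 per mRNA column). All 10 members had footprint values in every column. Blanks were left out. No replicate values were analysed, so no test replaced the 2-fold threshold. Untreated values in the DTT table are 0.913 (ER) or 1.06 (cytosol) times those in the Tg table, so both series share their untreated cells. The calculation of log2 differences was tested on simulated data. Members, lists and alternatives were chosen with earlier results of these data known. All members are named. From other lists up to 3 genes over 2-fold are named in order of size, and Tfg, Klhl12, Sec23a and Sec24d were named after their values were seen. The 5 genes of most similar profile had the highest correlation among genes above the median level, and 1 of them is not reported here. Python 3.11.15 with pandas 2.3.3 and numpy 2.4.6 was used.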

Additional observations from a re-analysis of the deposited data

Results flagged for a closer look

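Members whose footprints were lower in the ER and higher in the cytosol than in untreated cells, that is, whose fractions went opposite ways under the same treatment, numbered 10 at 0.5 h, 10 at 1 h, 10 at 2 h and 6 at 4 h of Tg. After DTT they numbered 10 with 0 min, 6 with 10 min and 5 with 20 min of recovery. These counts take differences of any size, and the difference between the fractions was not tested. The share of all genes whose fractions went opposite ways was not counted. Median log2 differences of all genes were -0.173 (ER) and 0.235 (cytosol) at 0.5 h and -0.060 and 0.104 at 1 h of Tg. After DTT they were -0.228 and 0.485 at 0 min and -0.042 and 0.387 at 10 min of recovery. At 2 and 4 h of Tg and 20 min of recovery both medians were higher than in untreated cells.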

How the results depend on the processing

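Of 180 recomputed counts of members, 149 stayed within 1.5 times the reported count. A pseudocount of 0.1 did so for the 32 footprint and mRNA counts, and dividing each fraction by its column total for the 4 counts of sums. For lower ER density, members numbered 3, 2, 4 and 2 at 0.5, 1, 2 and 4 h of Tg without a pseudocount in place of 1, 0, 1 and 1, and 3 and 1 after 10 and 20 min of DTT recovery in place of 1 and 0. With 0.1 they numbered 2, 2 and 3 at 0.5, 1 and 2 h and 3 and 1 after 10 and 20 min. These density settings were chosen after seeing the data. From the ratio of the scores 1 member was lower at 1 h. With a 1.5-fold threshold, members with lower ER footprints numbered 8, 10 and 7 at 1, 2 and 4 h of Tg in place of 4, 5 and 0, and 2 after 10 min of DTT recovery in place of 0. Lower sums then numbered 8, 7, 8 and 7 at 0.5, 1, 2 and 4 h in place of 2, 2, 4 and 0, and lower shifts 7 at 4 h in place of 3. Centred on the median of all genes, lower ER footprints numbered 1 at 4 h of Tg and 4 directly after DTT in place of 0 and 7, lower sums 4 at 0.5 h, and lower ER mRNA 3 at 0.5 h of Tg and 1 directly after DTT in place of 5 and 2. With genes complete in every column, these mRNA counts were 2 and 1, because 4 members are complete there. With blanks taken as 0, 10 members had higher untreated mRNA in the ER, and cytosol mRNA was higher in 10 at 0.5 h of Tg and in 9 directly after DTT, in place of 4 each, because blank values then count. No difference over 2-fold reversed. Centring turned the sign of 7 of 370 footprint differences of members, all under 2-fold, among them Ppib in the ER at 4 h of Tg (0.07 to -0.06) and the Lox sum after 20 min of recovery (0.12 to -0.04). The cause of the other changes was not tested, and the depth is unknown. No paired analysis was possible because each deposited column pools its replicates.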
